A study of Mus musculus with 31 samples.

Results

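A set of 6 receptor genes that guide monocytes and other myeloid cells, Ccr1, Ccr2, Cx3cr1, Cxcr2, Cxcr4 and Ccrl2, was followed through 31 single mouse lung cells. They were chosen by name, and all 6 were found among the 47069 genes measured. Each was described in the 31 cells and again in the 20 cells that held at least 1000 FPKM of Lyz2, the lysozyme gene of myeloid cells. FPKM is a fragment count corrected for transcript length and sequencing depth, so that levels of different genes can be set side by side. The length used for Ccr2 and Cxcr4 differed between cells, which limits such comparisons. The minimum for calling a gene present was 1 FPKM.

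All cells came from the right lung lobes of adult Csf1r-GFP mice aged 10 weeks, 7 days after sham surgery, in which the chest was opened. The reporter labels cells that use Csf1r, the gene of the macrophage growth factor receptor, and it is also active in monocytes. The sort label names CD45, CSF1R-GFP and F4/80 as positive and gives Ly6G without a sign. The labels give 1 group and name no animal, so the cells stand for 1 sample, no test between conditions could be made, and intervals cover counting error over cells only.

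Chemokine receptors read gradients of small secreted proteins through inhibitory G proteins and turn them into directed movement. In the mouse, Ccr2 brings Ly6c2-high classical monocytes out of the bone marrow and into inflamed tissue, and Cx3cr1 marks patrolling monocytes and many resident macrophages. Cxcr4 holds immature cells in the marrow, Ccr1 answers inflammatory CC chemokines, Cxcr2 is the main receptor of neutrophils for CXC chemokines, and Ccrl2 binds chemerin without known chemokine signalling of its own.

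The coding stretch around the DRYLAIV motif, by which a chemokine receptor couples to G proteins, is shown because it sets Ccrl2 apart from the other members. Sequences were read from GENCODE M21 transcripts (GRCm38), on the coding strand from 5′ to 3′, with the codons of the motif or of the aligned residues in capitals.
Ccr1: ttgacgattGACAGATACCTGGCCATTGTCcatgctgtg
Ccr2: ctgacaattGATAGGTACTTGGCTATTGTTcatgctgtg
Cx3cr1: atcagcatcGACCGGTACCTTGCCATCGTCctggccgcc
Cxcr2: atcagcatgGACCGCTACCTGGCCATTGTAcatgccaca
Cxcr4: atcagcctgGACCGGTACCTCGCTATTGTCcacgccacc
Ccrl2: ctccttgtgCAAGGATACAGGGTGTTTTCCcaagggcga
The first 5 genes encode all 7 residues of the motif, at residues 130 to 136 of Ccr1 and 150 to 156 of Ccr2, for example. In the alignment to Ccr2, Ccrl2 kept 1 of the 7 residues. Over the whole encoded protein, Ccr2 was 54.9% identical to Ccr1, 47.2% to Cx3cr1 and 39.4% to Ccrl2.

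Of the members, 4 lie on chromosome 9 and the others on chromosome 1. Ccr1 (ENSMUSG00000025804) lies at chr9:123962124-123968692 on the minus strand and Ccr2 (ENSMUSG00000049103) at chr9:124101950-124113557 on the plus strand. Cx3cr1 (ENSMUSG00000052336) spans chr9:119901616-120069879 and Ccrl2 (ENSMUSG00000043953) spans chr9:111054486-111057519, both on the minus strand. Cxcr2 (ENSMUSG00000026180) lies at chr1:74153989-74161246 on the plus strand and Cxcr4 (ENSMUSG00000045382) at chr1:128588199-128592293 on the minus strand. The Cx3cr1 gene overlaps several others, but only the antisense gene Gm33858 has exon bases in common with it, 78 in all, and the libraries do not mark the strand.

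Total expected counts were 521492 to 4059833 in the 20 Lyz2-high cells (median 1591648) and 120835 to 1592301 in the other 11 (median 413337). Of those 11 libraries, 10 stood apart, with 32.68% to 61.37% of counts on nuclear protein-coding genes against 87.43% to 95.56% in the Lyz2-high cells, and are called low-coding libraries here. The eleventh, cell F11, had 87.86% coding counts, no Lyz2 and 257.6 FPKM of C1qb, a complement gene of macrophages. Of the sorted genes, Csf1r was present in 20, Ptprc (CD45) in 19, Adgre1 (F4/80) in 15 and Ly6g in 7 of the 20 Lyz2-high cells. In the 10 low-coding libraries, Csf1r was in 7, Ptprc in 4, Adgre1 in 1 and Ly6g in 0. A list of 10 classical monocyte genes was met by at least 50% of its members in 12 of the 20 cells, the interstitial macrophage list in 5 and the nonclassical monocyte list in 2. Of 10 alveolar macrophage genes, 9 were in none of the 20, as were 60.4% of all protein-coding genes. The cell just inside the Lyz2 minimum, C7, had 1229 FPKM and the cell just outside it, D10, had 553 FPKM.

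Ccrl2 and Ccr2 were the widespread members among the Lyz2-high cells, and the other 4 were each found in 50% of them or fewer. Ccrl2 was present in 17 of 20 (85%, exact 95% interval 62.11% to 96.79%) and Ccr2 in 16 (80%, 56.34% to 94.27%). Cxcr2 was present in 10 (50%, 27.2% to 72.8%), Cx3cr1 and Cxcr4 in 9 each (45%, 23.06% to 68.47%) and Ccr1 in 7 (35%, 15.39% to 59.22%). Thus 3 of the 6 were in at least 50% of these cells, as were 3.04% of all 47069 genes and 5.83% of protein-coding genes. The third, Cxcr2, was at exactly 50%, and at a minimum of 5 FPKM it was in 1 of the 20. Against the 8538 protein-coding genes found in at least 1 of these cells, Ccrl2 was in more cells than 95.78% of genes, Ccr2 than 94.62% and Ccr1 than 74.15%.

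**Figure D1:**
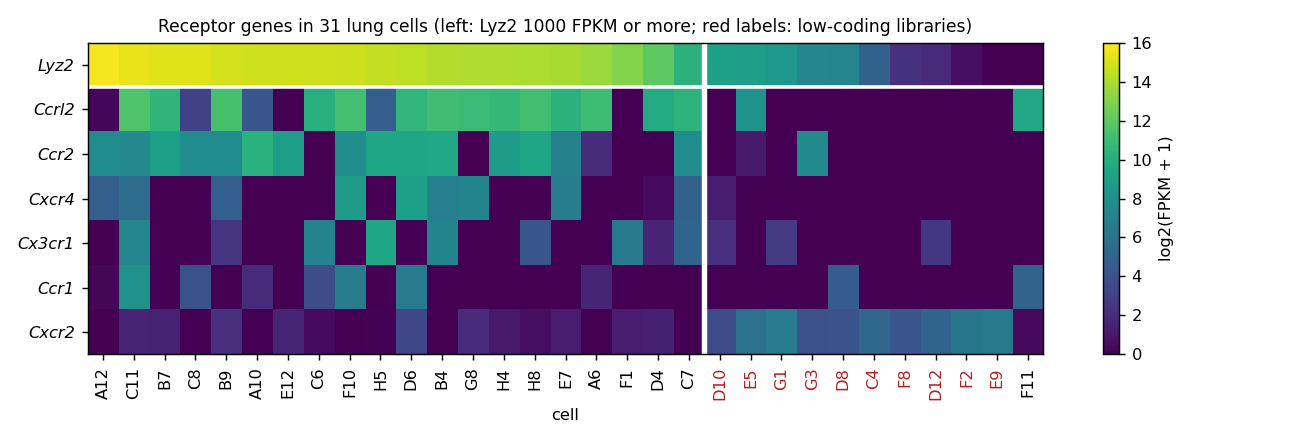
Level of Lyz2 and the 6 receptor genes as log2(FPKM + 1), in colour, with 1 column for each of the 31 cells, ordered by Lyz2 from left to right; the white line separates the 20 cells at 1000 FPKM of Lyz2 or more from the other 11, and red cell names are the 10 low-coding libraries. Ccrl2 and Ccr2 fill most columns left of the line, while Cxcr2 is highest in the 10 low-coding columns.

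Ccr2, the receptor for CCL2 and its relatives, had 0 FPKM in the lowest Lyz2-high cell, a median of 221.6 and 1197 in the highest (347 ± 331.1, mean ± SD over 20 cells). The cells divided into 15 at 127 FPKM or more and 5 at 3.10 or less, with none between. The highest was A10, a cell with 7311 FPKM of Ly6c2, and the 4 cells without Ccr2 were C6, D4, F1 and G8. Ccr2 rested on a median of 1777 expected counts where present, and 15 of the 16 cells had at least 10. Among the other 11 cells it was present in 2, at 188.1 FPKM in G3 and 1.19 in E5. Ccr2 transcripts share 129 of 6758 windows of 50 bases with transcripts of other genes, yet its counts were whole numbers (within 0.005) in all but 1 of the 18 cells above 0. The exception was D6.

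Cx3cr1, the receptor for the membrane-bound chemokine CX3CL1, was at 0 FPKM in 11 Lyz2-high cells and reached 695 FPKM in H5. The 9 cells that held it ran from 1.97 in D4 to 695, with a median of 89.44. One cell, H5, stood alone, since the next highest, C11, had 160. In H5 and F1, Cx3cr1 was the highest of the 6 members. Among the other cells it was present in 3 low-coding libraries, at 3.65 to 5.45 FPKM, each on 5 to 8 expected counts. Lyz2-high cells with Cx3cr1 had a median of 1703657 total counts and those without it 1387743.

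Ccr1, a receptor for CCL3, CCL5 and the mouse chemokines CCL6 and CCL9, was present in 7 Lyz2-high cells. Among them, 3 stood above the rest, C11 at 294 FPKM, F10 at 109 and D6 at 89.8, and the other 4 lay between 2.09 and 14.45 FPKM. The 13 remaining Lyz2-high cells had less than 1 FPKM. Of the other 11 cells, F11 had 33.8 FPKM and D8 24.4. Ccr1 was thus found in F11 at a higher level than in 4 of the 7 Lyz2-high cells that held it, although F11 had no Lyz2.

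Cxcr4, the receptor for CXCL12, was either clearly present or nearly missing. In 9 Lyz2-high cells it had 26.4 to 511.5 FPKM, with a median of 102.6, and 11 had 0.36 or less. D6 (512 FPKM) and F10 (439 FPKM) were the 2 highest, and both also had high Ccr1. Outside the Lyz2-high cells a single expected count in D10 gave 1.33 FPKM.

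Ccrl2, an atypical receptor that binds chemerin and presents it to other cells, was the most abundant member. Its levels ran from 0 through a median of 1357 to 3051 FPKM in the Lyz2-high cells (1279 ± 1000, mean ± SD over 20 cells). It was at 875 FPKM or more in 14 cells, 13 of which had over 1000, while the other 6 had 27.1 or less. The 6 low cells were A10, A12, C8, E12, F1 and H5, of which 4 held Ly6c2 and 2 held C1qb. Among cells that held the gene, its median of 1482 FPKM exceeded that of 98.55% of protein-coding genes, against 85.23% for Ccr2. Of the 11 other cells, F11 had 760 FPKM and E5 295, and the rest had none.

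**Figure D2:**
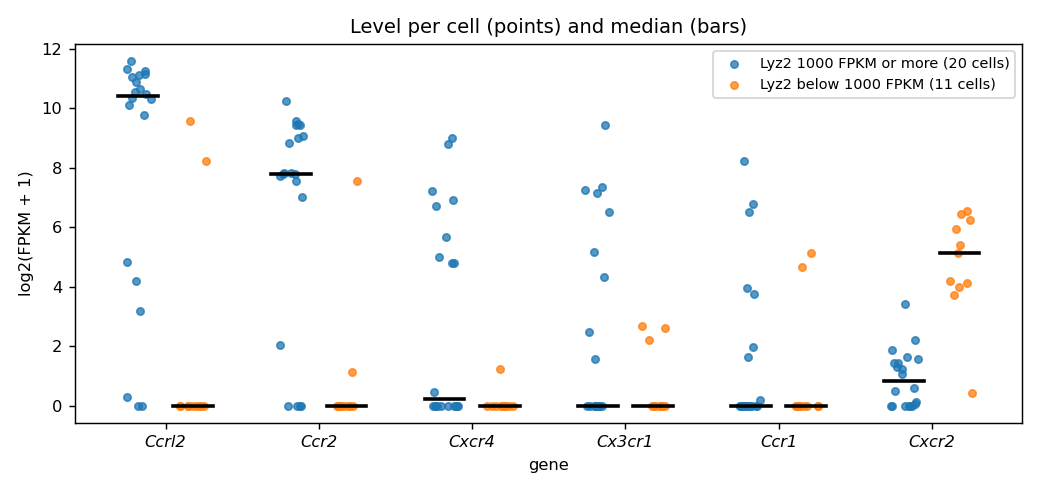
Level of each receptor gene in every cell as log2(FPKM + 1); blue points are the 20 Lyz2-high cells, orange points the 11 other cells, and black bars the medians of each. Ccrl2 and Ccr2 each form a high and a low band in the Lyz2-high cells, with medians of 1357 and 221.6 FPKM, and Cxcr2 is the gene whose median is higher in the other cells (34.29 FPKM, against 0.795 in the Lyz2-high cells).

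Cxcr2, the neutrophil receptor, went the other way from the rest of the set. In the Lyz2-high cells it had a median of 0.795 FPKM and at most 9.74, in D6, and its median where present, 1.82 FPKM, was above that of 2.95% of protein-coding genes. In the 10 low-coding libraries it was present in all 10, at 12.16 to 91.6 FPKM with a median of 37.5. Only 1.69% of all genes were present in all 10 of these libraries. That share covers presence alone, and how many genes had levels that separate the groups was not counted.

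Cxcr2 differed from the other members in its counts as well. In 25 of the 25 cells where it was above 0, its expected count was not a whole number within 0.005, as RSEM gives where it divides reads among genes. That was so in none of the cells with Ccr1 (10), Cx3cr1 (12), Cxcr4 (11) or Ccrl2 (20) above 0. Of the 6361 genes above 0 in 5 or more cells, 42.6% had mostly fractional counts, and 28.7% of those were present in all 10 low-coding libraries, against 0.52% of the genes with mostly whole counts. Cxcr2 transcripts share 161 of 3039 windows of 50 bases (5.30%) with transcripts of 201 other genes, among them Gm26764 and Dnajb14, whose shared windows lie after the coding part of Cxcr2. Ccr1, Cxcr4 and Ccrl2 share none. How much of the Cxcr2 value came from such reads was not tested.

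**Figure D3:**
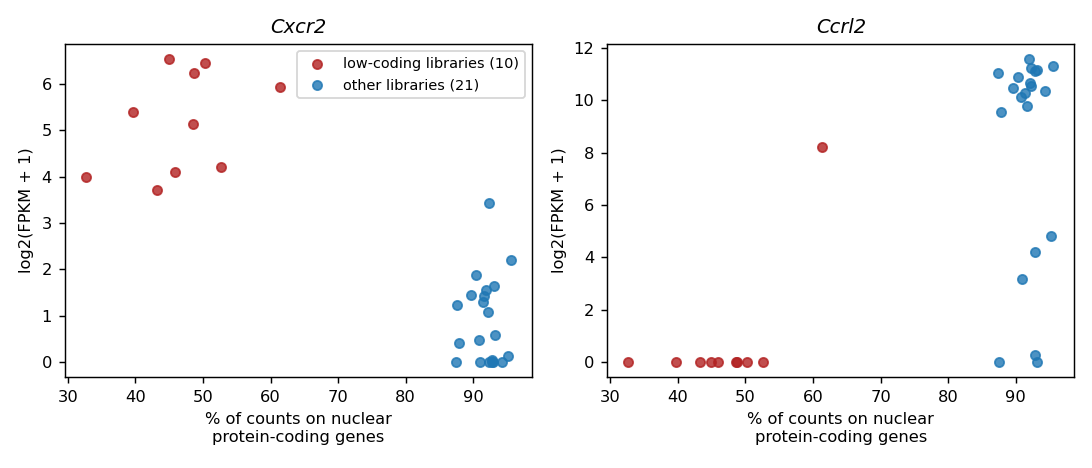
Level of Cxcr2 (left) and Ccrl2 (right) as log2(FPKM + 1) against the percentage of each cell's counts on nuclear protein-coding genes; red points are the 10 low-coding libraries and blue points the other 21 cells. Cxcr2 is at 12.16 FPKM or more in the 10 low-coding libraries and at 9.74 or less in the 21, while 1 of the 10 has Ccrl2, against 18 of the 21. How many of all genes have levels that separate these groups was not counted.

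Other neutrophil genes were found unevenly. Of 12 listed, 8 were at less than 1 FPKM in all 10 low-coding libraries, S100a8 and S100a9 among them, a share close to the 67.93% of all protein-coding genes that were in none of the 10. The summed level of the list was 0 to 273.8 FPKM in the low-coding libraries (median 13.61) and 0 to 1768 in the Lyz2-high cells (median 38.19). Among the 20 Lyz2-high cells, S100a9, Retnlg, Camp, Ltf and Lcn2 were in none, where a count of 0 allows a share of up to 15%. These were 5 of the 12 listed, while 60.4% of all protein-coding genes were in none of the 20. Ly6g was in 7 of the 20, Cd177 in 6 (up to 553 FPKM), Mmp8 in 4 (up to 398.3), S100a8 in 3 (up to 1594) and Mmp9 and Ngp in 1 each. Csf3r, the receptor gene of the neutrophil growth factor, was in 9 of the 10 low-coding libraries at up to 41.19 FPKM, and in 9 of the 20 Lyz2-high cells at up to 189.5. In those 9 low-coding libraries its lowest and highest expected counts, 4.63 and 42.39, were not whole numbers, as with Cxcr2. Of the other listed genes, Camp was in 2 of the 10 low-coding libraries and Mmp8 and Ngp in 1 each.

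Ranked by level where present in the Lyz2-high cells, the order was Ccrl2 (1505 ± 909.5 FPKM, mean ± SD over 17 cells), Ccr2 (433.7 ± 314.2, 16 cells), Cxcr4 (161.7 ± 184, 9 cells), Cx3cr1 (143.9 ± 216.2, 9 cells), Ccr1 (75.03 ± 106.1, 7 cells) and Cxcr2 (2.74 ± 2.56, 10 cells). Of these neighbours only Ccrl2 and Ccr2 had means farther apart than the larger of their SDs. Within single cells Ccrl2 led in 14, Ccr2 in 4 and Cx3cr1 in 2 of the 20. Where a cell held both genes, Ccrl2 was above Ccr2 in 11 of 14 cells, Ccr2 above Cxcr4 in 7 of 8 and Ccr2 above Cx3cr1 in 5 of 6.

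At the minimum of 1 FPKM, the members met in single cells about as often as the product of their separate shares gives. Each of the 15 pairs lay within 1.5 cells of it. Pairs with Ccr2 or Ccrl2, found in 16 and 17 of the 20 cells, had little room to depart from the product. Ccr2 and Ccrl2 were together in 14 cells, where the product of their shares gives 13.6. Ccr2 and Cxcr4 were together in 8 (7.2 from the product), Cxcr4 and Ccrl2 in 8 (7.65) and Ccr1 and Ccr2 in 6 (5.6). All 7 cells with Ccr1 also held Ccrl2 (5.95). Of the 15 pairs, 8 were below the product and 7 above it. Farthest below were Ccr1 with Cxcr2, at 2 cells against 3.5, Ccr2 with Cx3cr1, at 6 against 7.2, and Ccr1 with Cx3cr1, at 2 against 3.15. With a minimum of 50 FPKM, all 3 cells with Ccr1 also had Cxcr4, which was in 6 of the 20. Cx3cr1 was then in 5 cells and Ccr2 in 15, with both in 3. Products are given for the 1 FPKM minimum only. Across the 20 cells the Spearman correlation of levels was 0.45 for Cxcr4 with Ccrl2 and between -0.218 and 0.204 for the other 14 pairs, a description over cells of different depths from 1 sample.

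**Figure D4:**
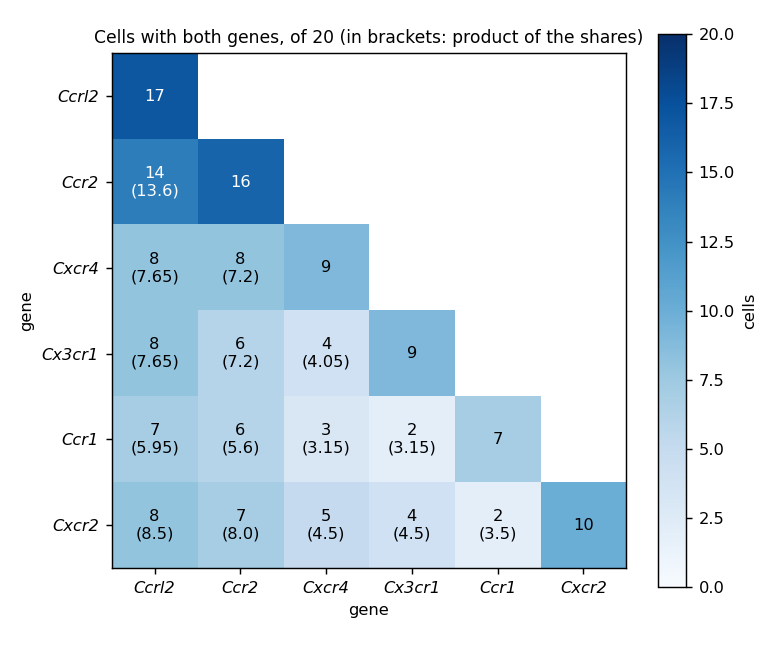
Number of the 20 Lyz2-high cells that hold both genes of each pair (colour and upper number), with the product of the genes' shares in brackets; the diagonal gives the cells with each gene. At the minimum of 1 FPKM, the count is within 1.5 cells of the product for every pair. It runs from 14 for Ccr2 with Ccrl2 to 2 for Ccr1 with Cx3cr1 and for Ccr1 with Cxcr2.

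Individual cells carried many different combinations. The 20 Lyz2-high cells showed 15 patterns of the 6 genes, with a median of 3 genes, and 17 cells held 3 or more. Without Cxcr2, whose counts were fractional, there were 13 patterns and 13 cells held 3 or more of the 5 genes. The pattern in most cells was Ccr1 with Ccr2 and Ccrl2, in 3 cells (A6, A10 and C8), and C11 held all 6. Of the other 11 cells, 4 held Cxcr2 alone and 2 held 3 genes.

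Among the Lyz2-high cells, Cx3cr1 was in all 6 with the macrophage marker C1qb and in 3 of the other 14. At the minimum of 1 FPKM, no Lyz2-high cell held both C1qb and Ly6c2, a surface protein gene of classical monocytes. In all, 10 held Ly6c2, 6 held C1qb and 4 held neither. H4, a Ly6c2 cell, had 0.63 FPKM of C1qb, and F10, counted with neither, had 0.60. Cx3cr1 was present in 6 of the 6 cells with C1qb (18.79 to 695 FPKM, median 114.2) and in 3 of the 14 without it, with exact intervals of 54.07% to 100% and 4.66% to 50.8% of cells. F11, the 1 cell with C1qb outside the Lyz2-high cells, had no Cx3cr1. It was present in 1 of the 10 cells with Ly6c2, at 4.54 FPKM in B9, and in 8 of the 10 without it. Cells with C1qb had a median of 2177839 total counts and those without it 1433691, and the part of depth in these counts was not tested.

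Ccr2 was found on both sides. It was present in 9 of the 10 Ly6c2 cells (median 219.6 FPKM) and in 7 of the 10 others (median 223.1), and in 4 of the 6 C1qb cells (B4, C7, H5 and H8, at 222 to 754 FPKM). Of the 10 cells with Ccr2 but no Cx3cr1, 8 held Ly6c2 and none held C1qb. Of the 6 cells with both receptors, 1 held Ly6c2 and 4 held C1qb. Of the 3 with Cx3cr1 alone, 2 held C1qb (C6 and F1). G8, with neither receptor, held Ly6c2 and was the 1 cell with Treml4, a gene of nonclassical monocytes.

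**Figure D5:**
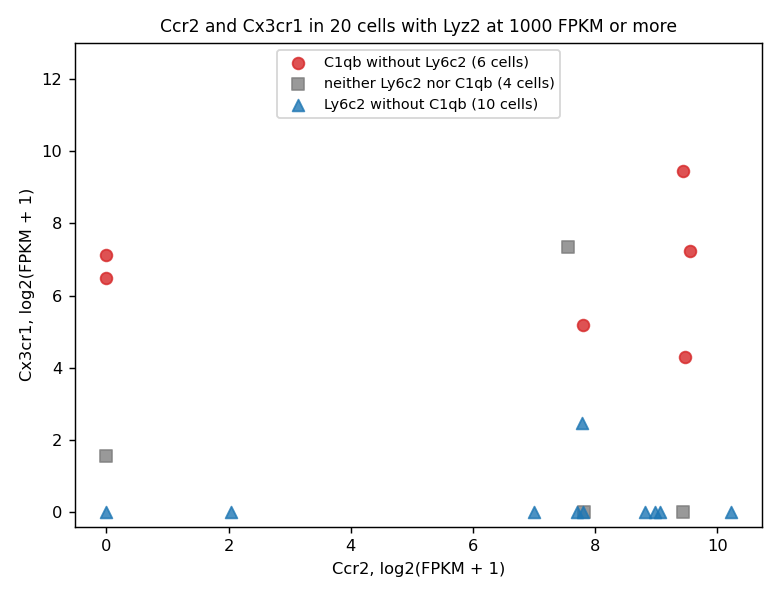
Cx3cr1 against Ccr2, both as log2(FPKM + 1), in the 20 Lyz2-high cells; red circles hold C1qb, grey squares hold neither marker and blue triangles hold Ly6c2. The 6 C1qb cells lie at 18.79 FPKM of Cx3cr1 or more, 9 of the 10 Ly6c2 cells lie on the line of no Cx3cr1, and Ccr2 above 100 FPKM occurs with both markers.

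The 4 Lyz2-high cells with neither marker, C11, D4, D6 and F10, included the highest Ccr1 and Cxcr4 levels of the 20. Ccr1 was at 294, 109 and 89.8 FPKM in C11, F10 and D6, while no Lyz2-high cell with Ly6c2 or C1qb passed 14.45 FPKM. F11, with C1qb but no Lyz2, had 33.8 FPKM. Cxcr4 reached 512 FPKM in D6 and 439 in F10, against at most 147.2 in Ly6c2 cells and 120.5 in C1qb cells. All 4 held Ccrl2, at 875 to 3051 FPKM. These cells were singled out after their values had been seen.

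Ccrl2, Cxcr4 and the other marker genes were less sharply divided. Ccrl2 was present in 8 of 10 Ly6c2 cells and 9 of 10 others, with medians of 1337 and 1389 FPKM. It was in 10 of the 13 cells with the MHC class II gene H2-Aa and in 7 of the 7 without it. Cx3cr1 was in 7 of the 13 H2-Aa cells and 2 of the 7 others. Cxcr4 was in 6 of the 9 cells with Csf3r and 3 of the 11 without it, with overlapping exact intervals of 29.93% to 92.51% and 6.02% to 60.97%.

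Of 19 other chemokine receptor genes listed, 15 were at less than 1 FPKM in all 20 Lyz2-high cells and in the 11 others too, where 48.53% of all protein-coding genes were in none of the 31 cells and 60.4% in none of the 20. These were Ccr3, Ccr4, Ccr6, Ccr7, Ccr8, Ccr10, Ccr1l1, Cxcr1, Cxcr3, Cxcr5, Cxcr6, Ackr1, Ackr2, Ackr3 and Ackr4. A count of 0 in 31 cells allows a share of up to 9.68%. Cmklr1, the signalling receptor for chemerin, was in 3 of the 20 at up to 10.14 FPKM, and Ccr9 and Xcr1 in 1 each.

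Ligand genes for several members were present in the same cells. For Ccr1, Ccl9 was in 19 of the 20 Lyz2-high cells (median 350.4 FPKM), Ccl6 in 18 (887.3), Ccl3 in 13 (990.6) and Ccl5 in 5. Of the 7 cells with Ccr1, Ccl6 was in all 7 (6.3 from the product of the shares) and Ccl9 in 6 (6.65). Ccl3 was in 4 of them (4.55) and Ccl5 in 2 (1.75). For Ccr2, Ccl2 was in 8 cells, 6 of them with Ccr2 (6.4 from the product of the shares), and Ccl12 in 5, all with Ccr2 (4). Cxcl2, a ligand of Cxcr2, was in 17 cells (median 1515 FPKM), including all 10 with Cxcr2 (8.5).

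The remaining ligands were found in few cells or none. Cx3cl1, Cxcl3, Cxcl5 and Ppbp were at less than 1 FPKM in all 31 cells, and Cxcl12, the ligand of Cxcr4, in all 20 Lyz2-high cells. Absence was common among all protein-coding genes too, with 48.53% in none of the 31 cells and 60.4% in none of the 20. The chemerin gene Rarres2 was in 2 of the 20, both with Ccrl2 (1.7 from the product of the shares). Mif, a further ligand of Cxcr4, was in 4.

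Genes that carry the signal inside the cell varied in how many cells held them. Of 25 listed, 18 were in at least 25% of the 20 Lyz2-high cells and 8 in at least 50%, and among all protein-coding genes the shares were 14.96% and 5.83%. The median was 7 of the 20 cells for a gene and 10 of the 25 genes for a cell. The genes in at least 50% of cells were as follows. The inhibitory G protein subunit gene Gnai2 was in 19 (median 240.6 FPKM), Gng5 in 19 (1314), Gnb2 in 16 (258.7) and Gnb1 in 11. Rgs2, which shortens G protein signals, was in 16 (350.8). Dock2 was in 13, Rac2 in 11 and Prex1 in 10, genes that link the receptors to the actin skeleton. The phospholipase gene Plcb2 was at less than 1 FPKM in all 20.

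Among 3226 protein-coding genes found in at least 25% of the Lyz2-high cells, those most like each member by Spearman correlation over the 20 cells were ranked. Nearest to Cx3cr1 were Rgs10 (0.827), a regulator of G protein signals, and Ap1b1 (0.791). Nearest to Ccr1 were Dpm1 (0.818), Nfkbid (0.792) and Tuba1c (0.717), and nearest to Ccr2 were Lasp1 (0.727), Chsy1 (0.684) and Trappc2l (0.669). Ccrl2 was nearest to the cyclooxygenase gene Ptgs2 (0.714), Hspa5 (0.701) and Cct8 (0.7). Cxcr4 was nearest to Eif1 (0.774), Rheb (0.746) and Hnrnpl (0.697), and Cxcr2 to Ndel1 (0.765), Cyp4f18 (0.735) and Sbds (0.697). These are the highest of 3226 values over 20 cells that differ in depth, and only 4 of the 18 genes most like a member (3 for each) were so again when Pearson correlation of log2(FPKM + 1) was used.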

How the data were processed

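The authors captured single cells on a Fluidigm C1 chip, amplified polyadenylated RNA with a SMARTer kit and made Nextera XT libraries, per the labels' protocols. Such libraries do not mark the strand and carry no molecular identifiers. CASAVA 1.8, Trimmomatic, RSEM and GRCm38 are named in the submitters' processing notes; neither aligner nor annotation release is given in the sources used here. The deposited values are RSEM expected counts, estimates that can be fractional, and FPKM values, scaled by the authors to transcript length and library depth.

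Of 75 count columns, 31 matched the sample titles and 44 matched none and were not used. Cells of 1 group with no animal named are not replicates, so values are descriptive and no p-value was computed. Shares have exact Clopper-Pearson 95% intervals, and a count of 0 allows 3 counts of the total. Gene symbols matched 46488 of 47069 identifiers. Coordinates and transcripts are from GENCODE M21; encoded proteins were translated from its transcripts and aligned with Biopython 1.88. Calculations used Python 3.11.15, pandas 2.3.3 and scipy 1.17.1. The ranking by Spearman correlation was tested on simulated cells, and the counts of pairs on a small made-up example.

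The members, lists and settings were chosen with earlier results of these data known. Named are the 6 members, listed receptor, ligand and signalling genes in at least 25% of Lyz2-high cells, listed receptors and ligands in none, the 3 genes most like each member, Lyz2, the sort genes and 5 marker genes. Results of some genes that this rule covers are not reported here. The choice of other list genes to name came after their values were known. No 2 libraries were duplicates, the highest correlation of log2 counts being 0.574. Alternatives were other minimums for presence and for Lyz2, equal depth, other scalings, a filter on coding share and other measures of likeness.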

Additional observations from a re-analysis of the deposited data

How the results depend on the processing

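Within the 20 Lyz2-high cells, the share with Ccrl2 ran from 70% to 90% over the minimums and depths tried, with Ccr2 from 75% to 80%, Cxcr4 from 30% to 50%, Cx3cr1 from 25% to 45% and Ccr1 from 15% to 40%. Lyz2 minimums of 100 and 10000 FPKM, which change the cells to 25 and 17, gave 72% and 88.24% for both Ccr2 and Ccrl2. Under the settings tried, Ccrl2 and Ccr2 kept the first and second rank by median level. Of the main shares and counts under each alternative, 65 stayed within the error of the value reported and 9 moved. With a minimum of 50 FPKM, Ccr1 was in 15% of these cells, against 35%. Cxcr2 was in 5% at a minimum of 5 FPKM, 0% at 50 FPKM and 20% at 10 expected counts, against 50%. The share of cells with 3 or more members was 55% at 5 FPKM, 25% at 50 FPKM and 60% at 10 expected counts, against 85%; these settings count fewer low values as present. Of the 18 most alike genes, 8 were so again among genes in at least 50% of cells and 4 with Pearson correlation. At 5 FPKM, Cx3cr1 was in 0 of 10 Ly6c2 cells. Depth limits absences: cells at 0 may hold a gene below detection. No paired analysis was possible because all cells belong to 1 group and no result comes from a test.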

Other observations

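The ratio of FPKM to counts scaled to library total (CPM) was nearly constant between cells for Ccr1 (0.376 to 0.378) and Cxcr2 (0.347 to 0.352) but ran from 0.193 to 0.478 for Ccr2 over its 18 cells, and from 0.612 to 0.953 for Cxcr4 over 10. The length by which a Ccr2 count was divided thus differed between cells. Ccr2 has 4 annotated transcripts, Ccrl2 (0.566 to 0.642) 3, Cxcr2 and Cxcr4 2 each, and Ccr1 1. The part of transcript number in these ratios was not tested.

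Xcr1, a receptor gene of cross-presenting dendritic cells, was present in 9 of the 10 low-coding libraries and in 1 of the 20 Lyz2-high cells, at 1.08 FPKM. Of the 8 dendritic cell genes listed, 4 were in none of the 10, and Zbtb46, Itgae and Siglech in 1 each. Of the signalling genes, Arrb1 was in 10 of 10 low-coding libraries and in 4 of 20 Lyz2-high cells, while Gng5 was in 0 of 10 and 19 of 20. Among all genes, 1.69% were in all 10 low-coding libraries, and 67.93% of protein-coding genes were in none of them. The part of reads divided among genes in the Xcr1 and Arrb1 values was not tested.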
